A study of Mus musculus with 5 samples.

Results

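Propionylation of lysine 23 of histone H3 (H3K23Pr) was mapped by chromatin immunoprecipitation and sequencing in mouse heart, and the landscape described here is that of the control diet sham heart, the 1 library of 5 in the series that had neither a changed diet nor an aortic operation. The mice were male C57Bl/6J animals aged 12 weeks. They ate a BCAA-control diet, which holds all essential amino acids including the branched-chain amino acids (BCAA: valine, leucine and isoleucine), from 4 days before a sham operation until the hearts were taken 2 weeks later. The chromatin came from whole hearts pooled from 3 mice, so the library had no replicate and its values carry no spread between animals. The other 4 libraries were 3 further H3K23Pr libraries, which varied in diet or had transverse aortic constriction (TAC), and 1 input pool. They enter nothing below except in 2 ways. The outlines of the regions were merged over the 4 H3K23Pr libraries, and the factor that turns signal into tags was found from the control diet sham and TAC libraries together.

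Histone propionylation is an acyl mark made from propionyl-CoA, a short-chain acyl-CoA released when isoleucine, valine, methionine, threonine and odd-chain fatty acids are broken down. Like acetylation it neutralises the charge of the lysine, and the acyltransferases p300 and CBP can place it. Acyl marks of this kind are known from the promoters and enhancers of active genes, and the heart, which oxidises fatty acids and amino acids, has a large flux through acyl-CoA.

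The deposited table held 30965 merged regions, of which 23755 (76.7%) were called in the control diet sham library. Each region carried an average signal and a peak signal, the mean and the highest coverage over the region in the authors' units. The average signal was 1.67 in the lowest region, 9.28 in the median region and 70.3 in the highest. The called regions had a median of 10.7 and the 7210 regions not called a median of 6.02. The called regions together covered 265.3 Mb and held about 16237300 tags, with a median of 341 tags per region. An exact 95% Poisson interval is printed in brackets beside the level of a single region, and it covers counting error only. The signal in a pool of whole hearts cannot tell fewer cells of a type from less mark per cell.

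Of 21883 protein-coding genes in RefSeq, 15331 (70.1%) had a region assigned to them. Counting other transcripts too, 18161 genes had at least 1 region, and each gene was given the level of its highest region. The median gene stood at 15.05, the lower quartile at 11.2 and the upper quartile at 19.0. These genes rested on 11937 regions, since neighbouring genes often share a region, so genes of 1 region are not independent. The highest region reached over the start of the gene for 11469 genes (63.2%), and for the others the level is that of a region within or beside the gene. The highest region was called in the library for 16838 genes (92.7%).

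The promoter windows of 7 genes are shown for their contrast in CpG content, 4 from genes that have a high region assigned to them and 3 from heart genes that have none. Each runs from 250 bases before to 50 bases after the start of transcription in RefSeq (GRCm38.p6), on the strand of the gene, with CpG dinucleotides and the letters TATAAA in capitals. Txnip encodes a brake on glucose uptake, Hif3a a subunit of a hypoxia-inducible factor, Klf15 a transcription factor that controls BCAA breakdown in muscle and heart, and Fkbp5 a chaperone partner of the glucocorticoid receptor. Nppa encodes atrial natriuretic peptide, Acta1 skeletal actin and Myh6 the main myosin heavy chain of the adult mouse heart.
Txnip, chr3:96557707-96558006, plus strand: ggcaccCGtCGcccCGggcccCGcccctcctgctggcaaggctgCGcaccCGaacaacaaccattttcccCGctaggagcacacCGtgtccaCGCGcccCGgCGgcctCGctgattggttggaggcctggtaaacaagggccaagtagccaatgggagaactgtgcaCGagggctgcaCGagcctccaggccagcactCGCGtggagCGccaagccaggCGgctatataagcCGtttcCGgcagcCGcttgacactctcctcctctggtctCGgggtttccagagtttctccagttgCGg
Hif3a, chr7:17062378-17062677, minus strand: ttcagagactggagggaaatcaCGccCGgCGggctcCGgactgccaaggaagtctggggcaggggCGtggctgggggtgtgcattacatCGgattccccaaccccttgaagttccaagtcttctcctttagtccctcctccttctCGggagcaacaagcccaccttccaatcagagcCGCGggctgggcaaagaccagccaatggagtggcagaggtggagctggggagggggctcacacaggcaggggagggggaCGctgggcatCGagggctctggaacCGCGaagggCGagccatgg
Klf15, chr6:90462326-90462625, plus strand: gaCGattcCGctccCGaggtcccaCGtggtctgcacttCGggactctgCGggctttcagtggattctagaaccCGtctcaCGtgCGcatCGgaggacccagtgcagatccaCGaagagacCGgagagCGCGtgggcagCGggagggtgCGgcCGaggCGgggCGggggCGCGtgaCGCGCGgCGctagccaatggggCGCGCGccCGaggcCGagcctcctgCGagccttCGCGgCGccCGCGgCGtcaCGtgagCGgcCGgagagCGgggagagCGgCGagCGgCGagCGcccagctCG
Fkbp5, chr17:28486100-28486399, minus strand: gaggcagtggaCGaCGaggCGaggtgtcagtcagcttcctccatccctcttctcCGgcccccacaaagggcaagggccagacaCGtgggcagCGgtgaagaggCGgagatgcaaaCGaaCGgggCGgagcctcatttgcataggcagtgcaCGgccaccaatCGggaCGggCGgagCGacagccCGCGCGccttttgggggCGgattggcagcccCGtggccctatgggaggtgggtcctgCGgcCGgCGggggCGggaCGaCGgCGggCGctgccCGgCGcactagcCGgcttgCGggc
Nppa, chr4:148000472-148000771, plus strand: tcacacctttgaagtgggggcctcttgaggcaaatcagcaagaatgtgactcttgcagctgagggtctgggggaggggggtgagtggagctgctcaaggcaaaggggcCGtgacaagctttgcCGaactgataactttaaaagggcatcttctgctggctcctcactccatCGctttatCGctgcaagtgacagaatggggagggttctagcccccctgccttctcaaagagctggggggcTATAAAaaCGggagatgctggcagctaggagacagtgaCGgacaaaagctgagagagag
Acta1, chr8:123894726-123895025, minus strand: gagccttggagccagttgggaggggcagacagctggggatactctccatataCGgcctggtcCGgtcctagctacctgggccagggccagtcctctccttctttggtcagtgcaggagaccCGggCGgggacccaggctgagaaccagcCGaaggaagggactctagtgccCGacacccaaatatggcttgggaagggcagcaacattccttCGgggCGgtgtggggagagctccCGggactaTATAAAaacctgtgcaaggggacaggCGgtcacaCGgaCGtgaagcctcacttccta
Myh6, chr14:54966558-54966857, minus strand: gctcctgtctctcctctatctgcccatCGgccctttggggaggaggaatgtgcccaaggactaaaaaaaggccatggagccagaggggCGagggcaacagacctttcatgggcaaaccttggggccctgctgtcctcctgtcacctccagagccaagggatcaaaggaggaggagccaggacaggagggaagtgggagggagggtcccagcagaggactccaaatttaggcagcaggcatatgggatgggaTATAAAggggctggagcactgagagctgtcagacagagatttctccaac

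The Klf15 window held 47 CpG dinucleotides and 3 copies of CACGTG, the E-box that clock factors bind. Txnip had 24 CpG dinucleotides, Hif3a 14 and Fkbp5 32, and none of these windows held TATAAA. Nppa had 6 CpG dinucleotides, Acta1 12 and Myh6 2, and each of the 3 heart windows held 1 TATAAA. The region over the window had an average signal of 63.3 for Txnip, 55.2 for Hif3a, 42.1 for Klf15 and 15.6 for Fkbp5. It was 3.43 for Nppa, 3.41 for Acta1 and 11.9 for Myh6. The regions over the Nppa and Acta1 windows were not called in this library. The Acta1 region held a promoter and a CpG island, as did those of Txnip and Hif3a. Its window was close to that of Hif3a in CpG count, with 12 and 14, so the count did not set these 2 loci apart.

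H3K23Pr was highest where a promoter and a CpG island coincided. The 9713 regions with both had a median average signal of 14.5 (95% interval of the median over regions 14.4 to 14.7), and 93.5% of them were called. The 16727 regions with neither had a median of 7.68 (7.62 to 7.73), and 66.6% were called. The median of the 927 regions with a CpG island alone was 10.1, and that of the 3598 regions with a promoter alone was 9.25. The difference in peak height was larger than that in average, with a median peak of 80 at CpG-island promoters and 22 in regions with neither. The ratio of peak to average was 5.17 and 2.93 in the same kinds of region, so that CpG-island promoters had the steeper profiles. CpG-island promoters held 54.2% of all tags, against 31.7% in the more numerous regions with neither.

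**Figure D1:**
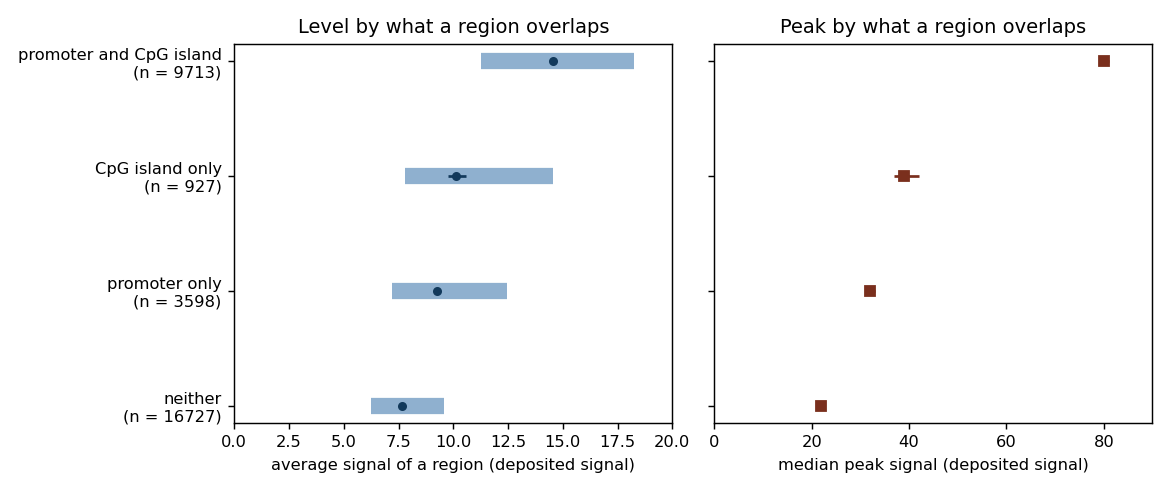
Average signal (left; point, median; thick bar, middle 50% of regions; thin bar, 95% interval of the median) and median peak signal (right) by what a region overlaps, in the control diet sham library. CpG-island promoters stand highest in both, at 14.5 and 80, and regions with neither lowest, at 7.68 and 22.

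The level also followed the number of promoters and the distance to them. Regions with 5 to 24 promoters had a median of 20, regions with 3 or 4 had 16.5, regions with 2 had 14.9, regions with 1 had 12.5 and regions with none had 7.77. The regions centred within 1 kb of a gene start had a median of 13.9, and 80.8% of these were CpG-island promoters. From 5 to 10 kb the median was 9.42, and at 50 kb or more it was 7.71. The 6813 regions with no assigned gene had a median of 7.89. Their level was close to that of regions far from a start. They made up 18.8% of the called regions and 10 (4.20%) of the 238 highest called regions.

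A small set of loci stood far above the rest. The highest average was 70.3 (66.8 to 74.1) in a 4.6 kb region at 4930526I15Rik and Gm20783 on chromosome 9, a pair of genes without an established role. The region of Lrrc8a, which encodes the essential subunit of the volume-regulated anion channel, reached 65.8 (64.6 to 67.1) over 39.0 kb and also served Phyhd1 and 1700084E18Rik. Txnip lay in a region of 41.4 kb at 63.3 (62.1 to 64.4), chr3:96545000-96586399 on mm10, shared with Gm15441 and Polr3gl. Its peak signal was 264, against a median peak of 32 over all regions. These 3 loci stood more than 4 times above the median gene.

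The next 2 regions were those of Fkbp5 and Hif3a, which are known to respond to glucocorticoids. The highest region of Fkbp5 reached 61.3 (60.1 to 62.5) over 36.8 kb, chr17:28493000-28529799, with its centre 25287 bp upstream of the start, and it also served Armc12, E230001N04Rik and LOC100862287. Fkbp5 had 5 regions: the one over its own promoter stood at 15.6 (14.96 to 16.2), another within the gene at 27.1 (26.2 to 27.9), and the lowest 2 at 7.13 and 6.92. The highest region assigned to Fkbp5 thus did not cover the gene's own start. It held 4 annotated promoters, and which gene its signal belongs to was not tested. Hif3a stood at 55.2 (53.5 to 57.0) over 16.2 kb, chr7:17051600-17067799, shared with Psg16, while a second region downstream of it had 17.7. Other regions followed between 54.9 and 48.7, the last of them that of Ptp4a3, which encodes a protein tyrosine phosphatase. Zbtb16, which encodes the glucocorticoid-induced transcription factor PLZF, came far later, as region 86 by average, at 34.6 (34.2 to 35.01). It filled 197.6 kb, chr9:48643600-48841199.

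The order by peak height brought up other loci. The highest peak, 341, lay in a domain of 181.8 kb at Wasf2, an activator of actin branching, with 6 further genes and an average of 22.7. Nr1d2, which encodes the clock repressor REV-ERB beta, had a peak of 331 and an average of 23.1 in only 9.6 kb. Brd2, which encodes a reader of acetylated histones, had a peak of 324 and an average of 27.6. The peaks at Nr1d2 and Wasf2 were 14.3 and 14.998 times the average of their own regions, against 5.11 times at Fkbp5. Of the 100 first regions by average and the 100 first by peak, 32 were the same.

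The longest regions were a further set. Ablim1, which encodes an actin-binding LIM protein, had 269.6 kb at an average of 18.7, and the longest region of Nfia, a nuclear factor I transcription factor, had 269.0 kb at 17.6. Irf2bp2, a transcriptional co-regulator, had 236.2 kb at 22.4. Tns1, which encodes the focal adhesion protein tensin, had 225.4 kb at 37.1 (36.7 to 37.5), chr1:73901200-74126599, and held the most tags of all regions, about 37324. The region of Dusp1, a phosphatase of MAP kinases induced by stress and glucocorticoids, measured 207.6 kb at 29.4 and served Neurl1b, Ergic1 and Gm8225 as well. Cebpb had 205.2 kb at 25.1, Zmiz1 199.2 kb at 27.8, Msi2 193.4 kb at 14.8, and A630001O12Rik with Tomm20 209.0 kb at 26.9. The Irf2bp2 region ended at chr8:126725399 and that of A630001O12Rik and Tomm20 began at chr8:126725600, so they nearly touched. Of the called regions of at least 30 kb, 20.7% had the next region within 1 kb. The order by length therefore depends on where the merging cut such stretches. Only 3 of the 100 first regions by average were also among the 100 longest: Tns1, Zbtb16 and Zmynd8, the last of which encodes a chromatin reader. These 3 were also among the 100 first by peak.

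By average multiplied by length, Tns1 came first, followed by Zbtb16 and Dusp1. The region over Col4a1 and Col4a2, the paired genes of basement membrane collagen, was next with 179.8 kb at 33.8. The region of Notch1 and Egfl7, a receptor and an endothelial secreted factor, had 153.2 kb at 33.4. The 1491 called regions of at least 30 kb were 6.28% of the called regions and held 36.7% of their tags. A CpG island lay in 63.5% of them, and their median gap to the next region was 3.20 kb, against 8.001 kb for shorter regions. The median average signal was 9.55 in called regions under 2 kb and 16.7 in those of 50 kb or more. The lengths are those of regions merged over 4 libraries, so they can exceed what the sham library alone would give.

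**Figure D2:**
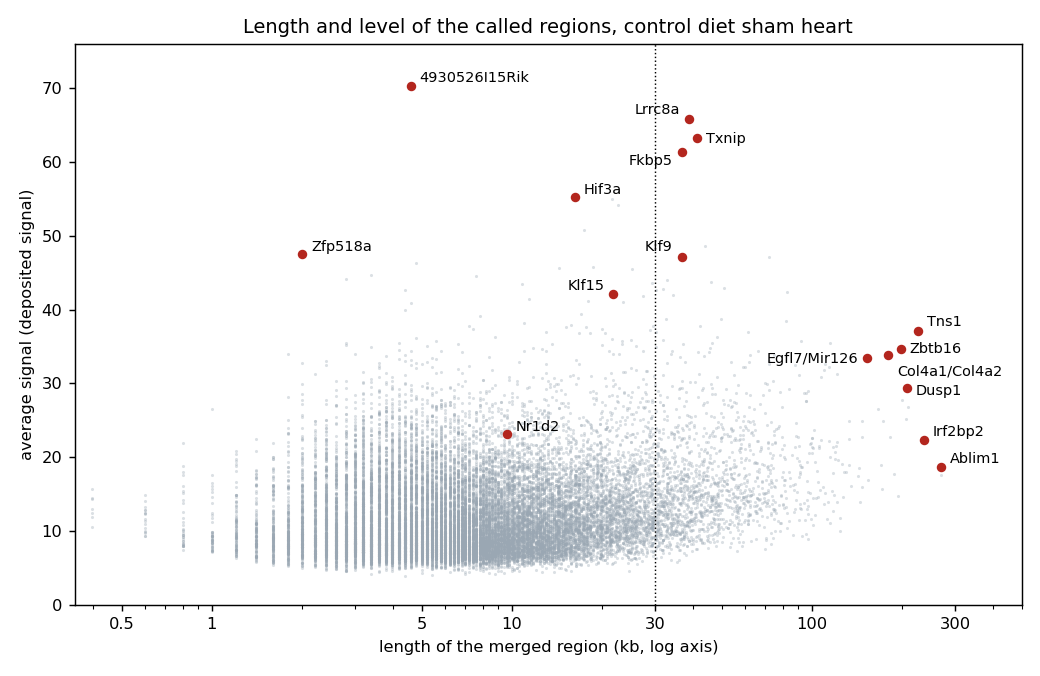
Average signal against length (log axis) for the 23755 called regions, each a grey point, with named loci in red and a dotted line at 30 kb. Txnip, Lrrc8a and Fkbp5 lie above 60 at about 40 kb, while the longest regions (Ablim1, Irf2bp2) lie near 20 and Tns1 and Zbtb16 combine length with levels near 35.

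Genes were then grouped into 31 lists of known function, and 603 of their 660 symbols had a region. A gene was called high when it was among the highest 10% of all genes (1819 genes) and low when among the lowest 10% (1818 genes). A gene was called broad when its highest region was at least 30 kb (11.5%, 2085 genes). The 95% interval of a list's median describes the spread over its genes and not over hearts.

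Genes induced by glucocorticoids and fasting had the highest median of the lists. The 33 of 35 genes with a region had a median of 27.5 (22.8 to 33.5), against 15.05 for all genes. Of these genes 22 were high, 1 was low and 18 were broad, and 29 stood above the median of all genes. Txnip, Fkbp5, Hif3a and Klf9 led the list, the last of them, a transcription factor induced by glucocorticoids, at 47.2 (46.1 to 48.2). Its lowest members were Lcn2, which encodes a secreted lipid carrier, at 12.2, and Trim63, which encodes the muscle ubiquitin ligase MuRF1, at 7.73. The list was drawn up with earlier results on these regions known, and Txnip, Fkbp5, Hif3a and Zbtb16 were known to be high.

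The clock list was also high. All 21 clock genes had a region, with a median of 21.2 (17.4 to 32.7), and 9 were high, none low and 7 broad. Dbp, an output gene of the clock, stood at 45.5, although that region also holds Rpl18 and 6 further genes. Nr1d1, which encodes the repressor REV-ERB alpha, stood at 38.4 over 82.0 kb and Cry2, a cryptochrome repressor, at 36.8. Arntl, which encodes the activator BMAL1, stood at 10.6. Nr1d2, at 23.1, was close to the median of the list. The time of day of collection is not given in the sources used here.

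Immediate early genes, which respond within minutes to growth factors and stress, had a median of 24.0 (19.7 to 29.4). Of the 25 genes 13 were high, none low and 12 broad. Zfp36, which encodes an mRNA decay factor, stood at 44.0, and Junb, Jun and Ier2 at 41.8, 41.4 and 39.4. Fos and Egr1 were the lowest at 10.5 and 14.5. Genes of AP-1 subunits thus lay both near the top, as Junb and Jun, and at the bottom, as Fos.

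**Figure D3:**
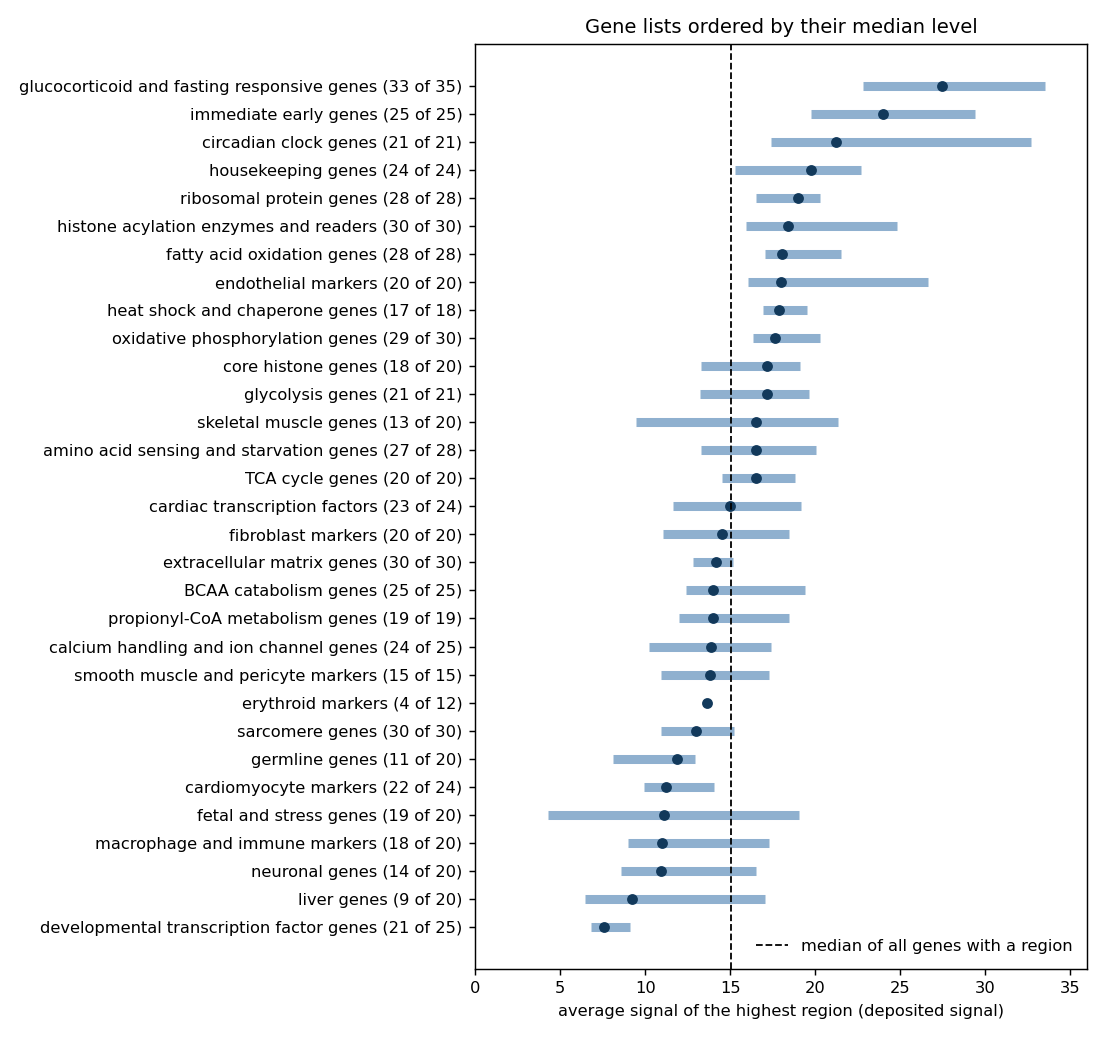
Median level of the genes of each list (point) with its 95% interval over genes (bar; none for erythroid markers, with 4 genes), and the median of all genes at 15.05 (dashed line). Brackets give the genes with a region of those in the list. The glucocorticoid and fasting list stands highest at 27.5, while cardiomyocyte markers lie at 11.2 and developmental transcription factors at 7.60.

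Among markers of the cells of the heart, endothelial genes stood above those of cardiomyocytes. Cardiomyocyte markers had a median of 11.2 (9.95 to 14.1) over 22 of 24 genes, with none high, 5 low and 20 called. Troponin I (Tnni3) stood at 21.3, troponin C (Tnnc1) at 21.2 and myoglobin (Mb) at 20.6. The natriuretic peptide genes Nppa and Nppb were lowest, at 4.29 (3.14 to 5.73) and 4.16 (3.07 to 5.51), and neither was called. Their regions were 2.4 and 2.6 kb long. Endothelial markers had a median of 17.96 (16.02 to 26.6), with 6 of 20 high, none low and 10 broad. Egfl7 led them at 33.4, with the co-receptor endoglin (Eng) at 32.2 and the adhesion molecule Pecam1 at 29.3, and Erg at 12.8 and Emcn at 9.25 were lowest.

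Other cell types lay between or below. Fibroblast markers had a median of 14.5 (11.1 to 18.5), led by vimentin (Vim) at 27.4 and Cygb at 22.7, with Smoc2 at 6.78 and the proteoglycan lumican (Lum) at 6.71 lowest. Smooth muscle and pericyte markers had a median of 13.8 (10.9 to 17.3), from Mylk at 24.3 and Cspg4 at 18.4 to Rgs5 at 10.1 and Acta2 at 8.71. The median of macrophage and immune markers was 10.99 (8.96 to 17.3), yet 4 of 18 were high. These were Cd68 at 29.7 and the 3 complement genes C1qa, C1qb and C1qc, which share a region at 27.8. The Cd68 region of 6.80 kb also served Fxr2, Sox15, Mpdu1, Mir1934, Eif4a1 and Senp3, so its level is not particular to Cd68. Cd163 at 7.54 and Itgam at 6.86 were the lowest of them. Of 12 erythroid markers only 4 had a region, from Klf1 at 15.2 to Slc4a1 at 9.73, and the adult globin genes Hba-a1, Hba-a2, Hbb-bs and Hbb-bt had none.

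The contractile and electrical programme of the heart lay at or under the level of all genes. Sarcomere genes had a median of 13.0 (10.9 to 15.2), with none of 30 high, 3 low and 9 broad. After Tnni3 and Tnnc1, filamin C (Flnc) stood at 19.4, while Xirp2 at 5.44 and Myot at 4.83 were not called. Myh6 and Myh7, the adult and fetal myosin heavy chain genes of the mouse ventricle, share 1 region of 25.6 kb at 11.9 (11.2 to 12.5). That region was centred 26950 bp downstream of the Myh7 start and did not reach it. A second region of Myh7, of 24.0 kb, lay over that start and stood at 6.69 (6.21 to 7.20). The giant spring protein titin (Ttn) had 10.1 (9.05 to 11.3) at its promoter, and its other 2 regions had 8.25 and 6.02. The long domains at several of these genes went with low averages, as at Mybpc3 with 7.08 over 28.2 kb.

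The median of calcium handling and ion channel genes was 13.9 (10.2 to 17.4), with 2 of 24 high and 3 low. The calcium pump gene Atp2a2, which encodes SERCA2, stood at 24.0 over 48.0 kb. Its inhibitor phospholamban (Pln) stood at 12.2 over 33.0 kb. The calcium release channel gene Ryr2 had 5 regions, the highest at 7.99 (7.65 to 8.34) over 58.4 kb, and the potassium channel gene Kcnd2 was lowest at 5.41. The pump and its inhibitor thus differed in level by nearly 2 times in this library, beyond counting error.

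Cardiac transcription factors had a median of 14.98 (11.6 to 19.2), with 5 of 23 high and 9 broad. Klf15 stood at 42.1 (40.8 to 43.4), the fatty acid receptor gene Ppara at 32.6 over 110.2 kb and Mef2d at 28.6. Myocd at 8.30 and Hand1 at 7.37 were lowest. Among the 19 fetal and stress genes 1 was high and 7 were low, with 11.1 (4.29 to 19.0) as the median. Cyr61 and Ctgf, which encode matricellular proteins, stood at 26.1 and 22.9, and Gdf15, a stress hormone, at 23.7, while Thbs4 and Acta1 were at 3.96 and 3.41 (2.70 to 4.25). Xirp2, Nppa, Nppb, Tnc, Thbs4 and Acta1 were the 6 genes of the list not called.

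Metabolic genes lay mostly above the median of all genes, and mostly at CpG-island promoters, which were higher as a class. The share at CpG-island promoters was 96.4% for fatty acid oxidation, 93.1% for oxidative phosphorylation, 100% for the TCA cycle and 95.2% for glycolysis. It was 73.5% for all genes. Fatty acid oxidation genes had a median of 18.1 (17.0 to 21.5), with 6 of 28 high, none low and 27 at CpG-island promoters. After Ppara, the transporter gene Cpt1a stood at 28.9 and the mitochondrial carrier gene Ucp3 at 27.5, and Hadh at 10.96 and Acads at 10.6 were lowest. Oxidative phosphorylation genes had a median of 17.6 (16.3 to 20.3), with 1 of 29 high, from the complex I gene Ndufs1 at 26.1 and Cyc1 at 22.2 to Cox8b at 12.1 and Atp5o at 11.7. TCA cycle genes had a median of 16.5 (14.5 to 18.8), with 1 of 20 high. Sdha, which was not the high one, stood at 20.8, and Mdh2 and Suclg2 were lowest at 11.9 and 11.4. Glycolysis genes had a median of 17.2 (13.2 to 19.6), from Pfkfb3 at 25.4 and Eno3 at 23.5 to Slc2a1 at 10.2 and Pgk1 at 10.1.

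The genes that feed and drain the propionyl-CoA pool lay near the median of all genes by average signal. Against all genes on the log2 scale, BCAA catabolism genes stood at -0.10 by average and 0.18 by peak signal. BCAA catabolism genes had a median of 14.0 (12.4 to 19.4), with 3 of 25 high and none low. Klf15 was the highest, followed by the enzyme genes Echs1 and Acadsb, both at 24.0. The transaminase gene Bcat2 stood at 18.7 and Bckdha, which encodes a subunit of the branched-chain ketoacid dehydrogenase, at 19.6. Its partner subunit gene Bckdhb was lowest at 9.10 and Ivd next at 9.19, and Ppm1k, which encodes the phosphatase that activates the complex, stood at 12.8. Neither E1 value comes from a region over the gene's start. The Bckdha region served 4 genes and was centred 29662 bp downstream, and that of Bckdhb was intragenic at 162218 bp from the start, without promoter or CpG island.

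Propionyl-CoA metabolism genes had a median of 14.0 (12.0 to 18.5), with none of 19 high and none low. Against all genes on the log2 scale, this list stood at -0.11 by average and 0.41 by peak signal, so its side depends on the measure. Aldh6a1, which makes propionyl-CoA from valine, stood at 22.97 and the peroxisomal oxidase gene Acox3 at 22.4. The carboxylase subunit genes Pcca and Pccb, whose enzyme removes propionyl-CoA, stood at 10.96 and 14.0. The Pccb region was its CpG-island promoter, while that of Pcca was an intragenic one of 3.20 kb, at 128471 bp from the start. Acss2 at 10.8 and Mmab at 10.5 were lowest. The enzymes and readers of histone acylation had a median of 18.4 (15.9 to 24.8), and 11 of 30 were high and 2 low. Ep300, which encodes the acyltransferase p300, stood at 29.3, the deacylase gene Sirt7 at 27.9 and Brd2 at 27.6, and Kat6a and Hdac8 were lowest at 8.09 and 7.81. Crebbp, which encodes the p300 homologue CBP, was at 13.9 and was named after its value was seen.

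Genes used in every cell were moderately high. Housekeeping genes had a median of 19.8 (15.3 to 22.7), led by the ubiquitin gene Ubb at 46.3, with Rab7 at 10.3 and Pgk1 at 10.1 lowest. Ribosomal protein genes had a median of 19.0 (16.5 to 20.3), with Rpl18 at 45.5, Rplp0 at 43.8 and Rps3, not the lowest, at 12.9. The Rplp0 region was shared with Pxn, lay upstream of Rplp0 and did not reach the start of that gene. Heat shock and chaperone genes had a median of 17.9 (16.9 to 19.5), from Hsp90ab1 at 32.1 and Hspa8 at 26.2 to Hsph1 at 12.9 and Hsp90aa1 at 12.4. The list of core histone genes, which also holds linker histone genes such as H1f0 and H1fx, had a median of 17.2 (13.3 to 19.1), from H1f0 at 26.1 and Hist1h2be at 20.7 to Hist1h4i at 10.7 and H1fx at 9.03. Amino acid sensing and starvation genes had a median of 16.5 (13.3 to 20.02), from Gatsl3 at 26.0 and the transporter gene Slc38a2 at 25.2 to Slc7a5 at 9.49 and Phgdh at 9.08. Extracellular matrix genes had a median of 14.2 (12.8 to 15.2) with 14 of 30 broad, led by Col4a1 and Col4a2 and the perlecan gene Hspg2 at 31.1, with Mmp2 at 9.12 and Tnc at 4.03 lowest.

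Genes of other tissues differed in how many had a region, against the 70.1% of all protein-coding genes. A region was assigned to 9 of 20 liver genes, 11 of 20 germline genes, 13 of 20 skeletal muscle genes, 14 of 20 neuronal genes and 21 of 25 developmental transcription factor genes. The liver and germline lists were thus below that share, neuronal genes at it and developmental genes above it. These counts take in regions called in any of the 4 H3K23Pr libraries. In this library the highest region was called for 15 of the 21 developmental genes and 11 of the 14 neuronal genes. It was called for 12 of 13 skeletal muscle, 10 of 11 germline and 8 of 9 liver genes, against 92.7% of all genes. Developmental transcription factor genes, which direct the body plan of the embryo, had the lowest median at 7.60 (6.80 to 9.11). Of the 21 of 25 with a region 13 were low and none was high, although 19 lay at CpG-island promoters. Lhx9 was highest at 17.8 and Nkx2-2 at 4.96 and Nkx2-1 at 2.71 were lowest, and the Lhx9 region of 0.399 kb was not called. The 9 liver genes had a median of 9.23 (6.48 to 17.0), with Hnf4a at 24.0 and G6pc at 17.0 at the top and Foxa2 at 5.92 at the bottom. Neuronal genes had a median of 10.9 (8.58 to 16.5) over 14 of 20, from Rbfox3 at 22.7 and Slc17a7 at 18.9 to Neurod2 at 7.91 and Olig2 at 5.05. Germline genes had a median of 11.9 (8.11 to 12.9) over 11 of 20, from Gdf9 at 17.6 and Tdrd1 at 12.9 to Zp2 at 8.11 and Piwil2 at 5.83. Skeletal muscle genes reached 16.5 (9.45 to 21.3) over 13 of 20, from Tnnt3 and Tnni2 in a shared region at 24.8 to Myf6 at 7.07 and Pax7 at 4.17.

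Among regions with a CpG island and a promoter alone, where all 13346 such genes had a median of 16.3, the glucocorticoid and fasting list was again the highest and developmental transcription factors the lowest, while other lists changed place. The glucocorticoid and fasting list had 28.6 (23.9 to 34.4) over 28 genes, immediate early genes 24.3 over 23 and developmental transcription factors 7.47 (6.74 to 9.11) over 19. The first of these lists was drawn up with some of its members known to be high. Cardiomyocyte markers had 14.1 over only 7 genes, with an interval of 7.08 to 21.3. Endothelial markers, at 22.7 (13.1 to 33.4) over 8 genes, stood above the clock genes at 21.2 (17.4 to 32.7), with overlapping intervals. Fetal and stress genes stood at 19.0 (9.12 to 23.7) over 9 genes, and macrophage and immune markers at 17.3 (12.8 to 27.8) over 9. BCAA catabolism genes stood at 18.1 (13.0 to 21.2) over 18, and fibroblast markers at 18.5 (15.2 to 27.4) over 8. These lists stood above the median of all such genes, where they had stood below that of all genes. Their intervals held the median of all such genes. Fatty acid oxidation genes, at 18.1 (16.9 to 22.7), and oxidative phosphorylation genes, at 17.6 (16.3 to 20.8), had intervals above that median. The intervals of TCA cycle genes, at 16.5 (14.5 to 18.8), and glycolysis genes, at 17.2 (13.5 to 19.6), held it. This setting was chosen after the data were seen.

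Sequences of microRNAs assigned to high and low regions are given with the seed, bases 2 to 8, in capitals, as they stand in RefSeq (GRCm38.p6). The miR-126 gene lies in an intron of Egfl7 and acts in endothelial cells, the genes of miR-23a, miR-27a and miR-24 form a cluster, and miR-208a, miR-208b and miR-499 lie within myosin heavy chain genes of muscle. All of them were chosen after their values were seen.
miR-126a-3p: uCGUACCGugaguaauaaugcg
miR-23a-3p: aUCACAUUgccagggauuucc
miR-27a-3p: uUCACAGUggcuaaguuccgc
miR-24-3p: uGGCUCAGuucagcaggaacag
miR-208a-3p: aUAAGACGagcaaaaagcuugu
miR-208b-3p: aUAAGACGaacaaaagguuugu
miR-499-5p: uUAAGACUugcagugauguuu

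The 349 microRNA genes with a region had a median of 13.7 (12.4 to 14.9), and 44 of them (12.6%) were high and 60 low. Mir126 lay in the domain shared by Egfl7, Notch1 and other genes, at 33.4 (33.0 to 33.9). The cluster of Mir23a, Mir27a and Mir24-2 lay in a domain of 48.4 kb at 36.4 (35.6 to 37.2). The myosin microRNAs were lower. Mir208a and Mir208b, whose seeds are the same, were assigned to the Myh6 and Myh7 region at 11.9, and Mir499 to a region of Myh7b at 7.31 (6.67 to 7.99). Mir208b lies within its region, while Mir208a and Mir499 lie outside theirs.

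The promoter sequences of all genes were set beside the regions. Of 21262 promoter windows of 17491 protein-coding genes, 58.2% lay in a region called in this library. The share was 11.2% of the windows with 0 to 2 CpG dinucleotides, 50.7% of those with 6 to 10 and 89.9% of those with 31 or more. Within called regions the level had medians of 12.2 (11.5 to 12.7), 13.6 (13.3 to 14.0) and 15.7 (15.3 to 15.9) in the same classes. Among the classes named here, both the share and the level were thus higher with more CpG dinucleotides. The level was already 15.7 (15.6 to 15.9) at 21 to 30 CpG dinucleotides and did not rise further above that. The share and the level are on different scales and cannot be ranked against each other. The level is that of the whole region and was compared among called regions only. Over the called windows Spearman's rho of CpG count and level was 0.15, given as a description because windows share regions and base composition.

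**Figure D4:**
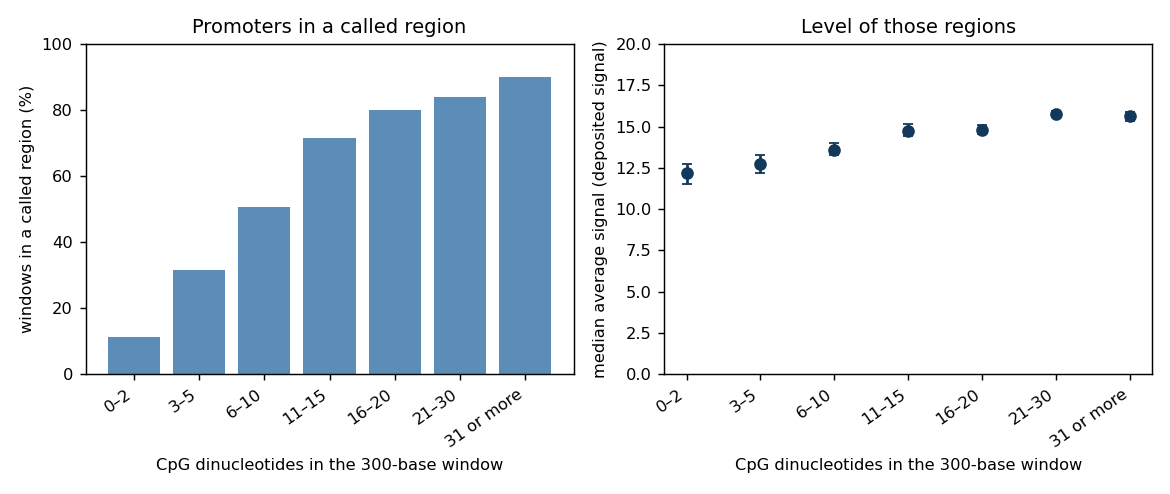
Share of promoter windows that lie in a called region (bars, left) and median average signal of the called regions (points with 95% intervals over windows, right) by the number of CpG dinucleotides in the window. The share climbs from 11.2% to 89.9%, while the median level lies between 12.2 and 15.7.

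Short motifs were counted on both strands of the same windows. TATAAA was in 6.85% of the windows in called regions and in 21.7% of those in no region, against 12.6% of all windows. GGGCGG, the GC box that Sp1 binds, was in 63.6% and 18.4%, against 46.2% of all windows. CACGTG was in 9.81% and 4.75%, against 7.84% of all windows, and CCAAT in 36.2% and 40.7%, against 38.2%. CACGTG and GGGCGG contain CpG, so their shares move with CpG content. Among the called windows the 1238 windows with the highest levels, against the 1238 with the lowest, held CACGTG in 11.8% and 8.32% and TATAAA in 5.01% and 11.1%. The full palindromic glucocorticoid response element, AGAACA and TGTTCT 3 bases apart, was in 0.00941% of all windows, too few to describe. The relaxed form GNACANNNTGTNC was in 0.291% of the windows in called regions and 0.670% of those in no region, against 0.442% of all windows. These windows do not cover distant sites such as the Fkbp5 region far upstream of the gene.

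The X chromosome, single in these males, was lower than the autosomes in 3 of the 4 kinds of region. CpG-island promoters on X had a median of 12.9 (11.8 to 13.6) over 272 regions, against 14.6 (14.5 to 14.7) over 9441 on autosomes, a ratio of 0.883. Single autosomes ranged between 13.8 on chromosome 15 and 15.5 on chromosome 16, so X stood below each of them. By peak signal the ratio was 0.568. Regions that lacked both had 6.32 (6.07 to 6.58) on X and 7.71 (7.65 to 7.76) on autosomes, and regions with a promoter alone had 8.41 (7.63 to 8.90) and 9.26 (9.15 to 9.42). Regions with a CpG island alone went the other way, with 10.98 (8.68 to 14.9) over 31 regions on X, against 10.1 (9.74 to 10.6) on autosomes, a ratio of 1.08. X regions were also shorter, with a median at CpG-island promoters of 3.20 kb, against 6.999 kb on autosomes. The number of copies of X and the activity of its genes cannot be told apart in these data.

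**Figure D5:**
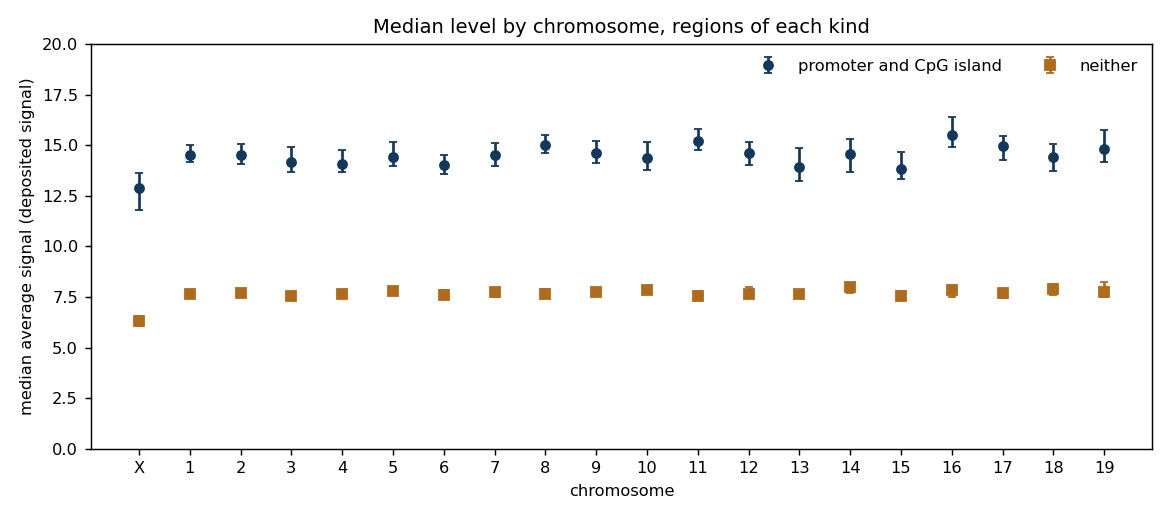
Median average signal with 95% intervals over regions by chromosome, for CpG-island promoters (circles) and regions that lack both (squares). X stands lowest in both, at 12.9 and 6.32, and the autosomes lie between 13.8 and 15.5 for CpG-island promoters.

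Large gene families differed in whether they had a region at all. On X 46.7% of protein-coding genes had one, against 72.0% on autosomes, and on Y 5 of 256 did. Of 1110 olfactory receptor genes 35 had a region, of 353 vomeronasal receptor genes 1, and of 56 keratin-associated protein genes 2. The Zfp zinc finger genes stood at the other end, with 330 of 397. These families were chosen after other values had been seen. The table lists only regions called in at least 1 of 4 libraries, so a gene without a region may still carry the mark below the limit of the calling.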

How the data were processed

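H3K23Pr chromatin immunoprecipitation and sequencing was done on pools of hearts, with chromatin work by Active Motif per the labels' protocols. Per the submitters' processing notes, BWA, MACS2 and the build mm10 (mouse) were used, with no roles or versions; further settings are not given in the sources used here. Per the file headers, the authors deposited the mean and highest signal (coverage) of every merged region in each library. The table flags where a region was called and lists its promoters, CpG islands and assigned genes with distances. The deposited log2 ratios between libraries were not used. The scaling of the signal is not given, and input was not analysed here. For this library the title and the treatment field gave the same group, while the treatment field of other samples differs from their titles.

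All levels come from the average, peak and called columns of the control diet sham library. Tags were the average signal times the length divided by 224, a divisor found from the deposited maximum tag number and average signals of the control diet sham and TAC libraries. If the authors scaled the tags, the counts differ by that factor. Reads carry no molecular identifiers, so intervals cover counting error only. Levels of regions have exact 95% Poisson intervals and medians have order-statistic intervals, which need at least 6 values. With 1 library no test was made and no p-value computed. Region distances run from the centre of a region to the gene start: 91.5% of 19905 pairs lay within 100 bp of the RefSeq start. Gene symbols were matched to RefSeq (GRCm38.p6), 5 of them through another symbol. The steps were checked on simulated data.

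The genes named are the 15 highest by average, the 10 highest by peak, the 10 longest and the 10 highest by average times length among called regions with a named gene, the 2 to 4 highest and 2 lowest of each list, and a fixed set of marker, heart and BCAA genes. Some genes that the rule names are left out. Others were named after their values were seen. The members and lists were chosen with earlier results of these data known. Calculations used Python 3.11.15, pandas 2.3.3, numpy 2.4.6, scipy 1.17.1 and matplotlib 3.10.9. Alternatives were the peak signal, called regions only, autosomes only, other ways of giving a gene its level, other length limits, and a wider class of high genes (25% in place of 10% of genes).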

Additional observations from a re-analysis of the deposited data

How the results depend on the processing

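No paired analysis was possible because the landscape comes from 1 library. CpG-island promoters stood above regions with neither by 0.92 on the log2 scale, by 1.86 with the peak signal and by 0.79 over called regions only. X minus autosomes was -0.18 on the log2 scale at CpG-island promoters, and -0.82 with the peak signal. Of the 100 highest genes by average, 34 were kept by peak signal and 56 by the mean over each gene's regions, so single ranks depend on the measure. The number of broad regions was 1491 at 30 kb, 2941 at 20 kb and 533 at 50 kb. The ratio of peak to average at CpG-island promoters over that in regions with neither was 1.77, and 1.63 over called regions only, an alternative added after the data were seen. The cause of these shifts was not tested. Of 185 values of single lists under alternatives, 165 had the sign of the reported value, and no list whose interval lay apart from all genes changed sign. Of the lists, 10 had an interval above all genes and 3 below. In CpG-island promoter regions only 7 lay above and 1 below, and by the region nearest to the gene start 10 and 6. Germline genes were among those lost, at 12.7 (8.48 to 17.6) in CpG-island promoter regions. The glucocorticoid and fasting list stayed between 0.81 and 1.23 above all genes on the log2 scale. Because members of that list were known beforehand to be high in these data, this range is no independent support for its place. The half-widths of counting intervals had a median of 12.7% of the level, so levels of short regions are the least certain.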

Other observations

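Some regions with high signal were not flagged as called in the control diet sham library. Of the 7210 regions not called, 364 (5.05%) had an average above the median of the called regions. The highest were Gpihbp1, which encodes the endothelial anchor of lipoprotein lipase, at 48.4 (46.8 to 50.1) over 14.999 kb, and Irf2bpl at 30.9 (30.3 to 31.6) over 63.0 kb. Tbx20, a cardiac transcription factor gene, stood at 25.2 over 20.4 kb and was not called either. Genes were given their levels without regard to the flag, so these genes keep their place in the lists, and what set the flag was not tested.

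Of the 238 highest called regions by average, 55 were shorter than 5 kb and 4 had a peak under 3 times their average, a flat profile found in 24.98% of all called regions. The Zfp518a region, 2.00 kb at 47.5 with a peak of 86, was the highest of the 4, and the region of Gpt and Recql4 was another, at 29.9 over 2.00 kb. The highest region with no assigned gene, chr9:122012000-122041199, had 43.6 (42.5 to 44.8) over 29.2 kb and held no promoter or CpG island. These loci were chosen after their values were seen.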
